A study of Mus musculus with 9 samples.

Results

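The mitochondrial ribosomal protein genes are the nuclear genes whose mouse symbol begins with *Mrpl* (large subunit) or *Mrps* (small subunit) followed by a number. They were chosen by symbol from the expression table of RAW264.7 macrophages, with a mean of at least 1 TPM (a gene's share of all transcripts in a library, scaled to a fixed total and corrected for length) over the 9 columns. Of 55401 genes in the table, 78 had such a symbol, and all 78 passed the limit, among 12819 genes that did. By symbol, 49 belong to the large subunit and 29 to the small subunit. No measured difference was used to choose them.

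RAW264.7 is a wild-type mouse macrophage line from a tumour induced by the Abelson murine leukemia virus, so all samples are cultures of 1 line. Cells received DMSO alone (the solvent control), DMSO+LPS (called LPS here), or LPS+Skatole (called LPS + Ska here) for 24 h by the sample labels and for 48 h by the study's methods. LPS is a bacterial wall component that activates macrophages, and skatole is an indole compound. Each group has 3 columns, numbered 5, 6 and 7, and the labels do not say whether they came from separate cultures, so p-values measure only the spread between columns.

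Mitochondria keep their own ribosomes, which translate the few proteins encoded by the mitochondrial genome, all of them subunits of the respiratory chain and ATP synthase. The ribosomal RNA of these particles is made inside the organelle. Their proteins are made in the cytosol from nuclear genes and imported. The small subunit reads the messenger RNA and the large subunit forms the peptide bonds. Some proteins have bacterial counterparts and others occur only in mitochondria. In macrophages, the change from respiration to glycolysis is a known feature of activation by LPS.

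A limit of the table bears on every result. In the LPS and in the LPS + Ska group, replicate 5 was the mean of replicates 6 and 7, within 1e-05 TPM, in 17950 of 17950 and in 17658 of 17658 genes with all 3 values above 0. No more than 2 values per gene are independent in either group, and an n of 3 counts columns. As an alternative, 2 values per gene were computed around replicate 5 in each of these groups, and are called recovered values here. They lie closer together than replicates 6 and 7. For *Mrpl1* with LPS they were 31.2 and 32.8 TPM, against 30.3 and 33.6 TPM in replicates 6 and 7. That they are the original measurements was assumed and was not tested. No setting left out replicate 5 of both treated groups together. Sequencing depth cannot be read from TPM and is unknown. All 10 macrophage markers examined were at 1 TPM or more in every column, and 10 markers of other cell types summed to at most 0.941 TPM. In bulk cultures, fewer cells of a kind and less RNA per cell cannot be told apart.

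The sequences upstream of 4 members are shown because these members had the largest changes: *Mrpl52* and *Mrpl33* rose most with LPS + Ska, and *Mrpl34* and *Mrps26* fell most with LPS. Each is the 250 bases before the gene's RefSeq start in GRCm38.p6, printed 5′ to 3′ on the gene's strand. Capitals mark matches, on either strand, to the letters CCGGAAG of ETS-family factors such as GABP or GCATGCGC of nuclear respiratory factor 1 (NRF1), both known activators of nuclear genes for mitochondrial proteins.
Mrpl52, chr14:54426659-54426908, plus strand: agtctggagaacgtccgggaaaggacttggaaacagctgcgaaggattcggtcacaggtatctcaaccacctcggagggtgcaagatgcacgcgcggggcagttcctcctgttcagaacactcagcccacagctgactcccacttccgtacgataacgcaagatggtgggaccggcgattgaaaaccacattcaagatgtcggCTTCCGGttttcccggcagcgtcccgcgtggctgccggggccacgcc
Mrpl33, chr5:31613701-31613950, plus strand: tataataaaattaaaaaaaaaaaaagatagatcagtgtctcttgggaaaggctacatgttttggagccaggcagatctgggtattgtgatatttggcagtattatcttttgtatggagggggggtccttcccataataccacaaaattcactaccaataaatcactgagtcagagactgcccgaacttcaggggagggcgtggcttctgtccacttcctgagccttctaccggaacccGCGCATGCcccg
Mrpl34, chr8:71464676-71464925, plus strand: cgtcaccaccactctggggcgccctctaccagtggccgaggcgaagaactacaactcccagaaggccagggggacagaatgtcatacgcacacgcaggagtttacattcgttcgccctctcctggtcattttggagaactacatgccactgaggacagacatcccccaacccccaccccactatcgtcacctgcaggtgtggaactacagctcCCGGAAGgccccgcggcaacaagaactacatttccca
Mrps26, chr2:130563507-130563756, plus strand: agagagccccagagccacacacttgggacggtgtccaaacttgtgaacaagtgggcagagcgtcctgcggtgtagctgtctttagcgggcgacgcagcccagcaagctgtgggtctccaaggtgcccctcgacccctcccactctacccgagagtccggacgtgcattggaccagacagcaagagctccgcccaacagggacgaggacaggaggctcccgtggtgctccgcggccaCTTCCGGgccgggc
The windows of *Mrpl52*, *Mrpl34* and *Mrps26* hold the ETS letters, all but that of *Mrpl34* in the reverse orientation, and the window of *Mrpl33* holds the NRF1 letters. The pair that rose thus shares no motif of the search, and the ETS letters occur upstream of genes that moved in opposite directions. The RefSeq start of *Mrpl33* lies inside the gene's span in the GENCODE annotation, so that its window is also inside that span. A match is a run of letters and not a measured binding site.

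The letters of 4 motifs were searched on both strands in 75 RefSeq windows, which covered 69 of the 78 symbols. CCGGAAG was in 24.0% of these windows, 14.9% of the windows of all genes tested and 6.9% of all windows. GCATGCGC was in 10.7%, 4.6% and 2.3%. AAGATGGC, letters of YY1, was in 5.3%, 2.2% and 1.6%. TATAAA was in 6.7%, 6.1% and 12.4%. The ETS, NRF1 and YY1 letters were thus found in a larger share of the member windows than of either background, and TATAAA in a share close to that of the genes tested. Windows of 38 symbols held none of these letters.

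All 78 members were expressed in every column, and none was listed at 0. Mean TPM ran from 17.4 to 322, an 18.5-fold range, with a median of 52.9, against 20.7 over all genes tested. The large and small subunit members had median levels of 53.5 and 52.2 TPM. TPM is corrected for length, so that levels can be compared between genes. The highest levels were those of *Mrps6*, a bacterial-type protein of the small subunit (mean 322 TPM), *Mrpl42*, a mitochondria-specific protein (306 TPM), and *Mrpl4* (176 TPM). The lowest were *Mrpl48* (17.4 TPM), *Mrps35* (18.6 TPM) and *Mrpl47* (21.7 TPM). The order of levels was similar between groups: across the 78 genes, Pearson's r of log2 levels was 0.88 for LPS and DMSO, 0.95 for LPS + Ska and LPS, and 0.81 for LPS + Ska and DMSO, given as a description since the genes share libraries.

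Summed over the 78 genes, the members took 0.578%, 0.594% and 0.596% of the DMSO columns, 0.522% to 0.525% of the LPS columns, and 0.478%, 0.525% and 0.572% of the LPS + Ska columns. Every DMSO column was above every LPS and LPS + Ska column, while the LPS + Ska columns lay on both sides of the LPS columns. The large subunit sum was 3840 ± 53.3 TPM (SD, n = 3 columns) with DMSO, 3318 ± 33.0 with LPS and 3362 ± 332 with LPS + Ska. The small subunit sum was 2052 ± 56.7, 1917 ± 47.0 and 1891 ± 140 TPM. The ratio of large to small was between 1.82 and 1.90 with DMSO, between 1.67 and 1.79 with LPS and between 1.73 and 1.82 with LPS + Ska, and every treated column lay under every DMSO column, LPS + Ska replicate 7 only just under DMSO replicate 7. No test was run on these sums.

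**Figure D1:**
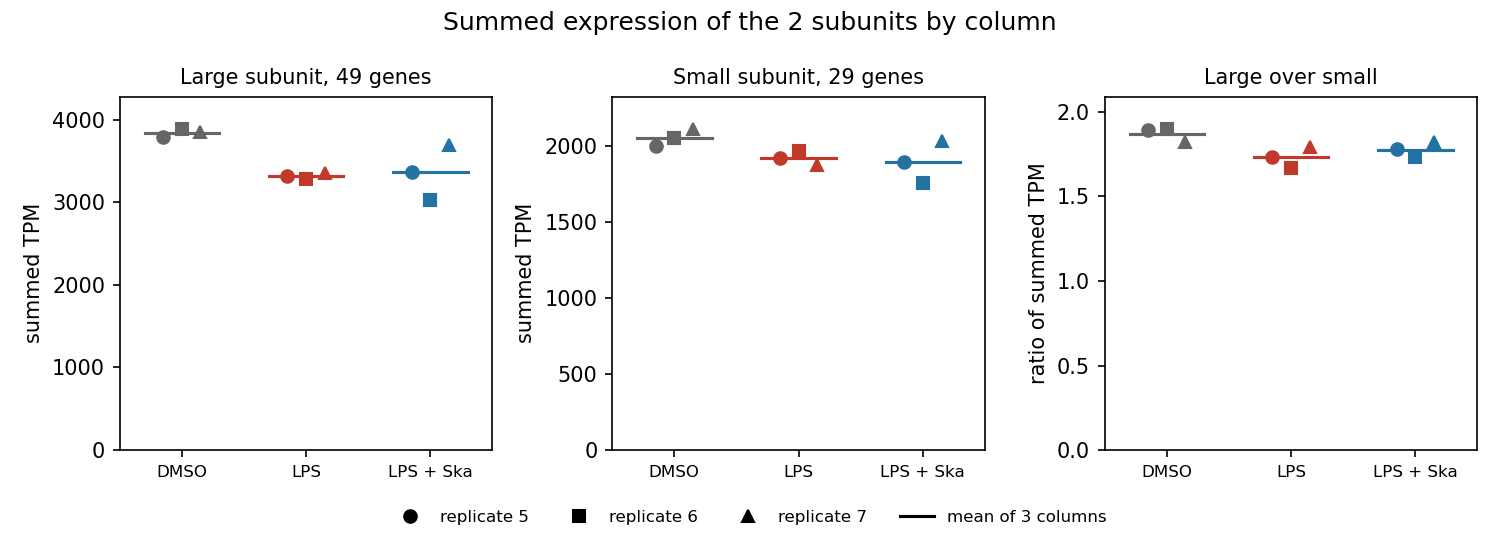
Summed TPM of the 49 large subunit genes (left) and the 29 small subunit genes (middle), and their ratio (right), in each of the 9 columns; symbols are replicates and lines are means of 3 columns. The large subunit sum is lower in every LPS column than in every DMSO column, and the LPS + Ska columns range from 3030 to 3693 TPM.

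The first comparison asked how activation by LPS changed these genes. LPS lowered 14 of the 78 members (17.9%) and raised 1 (1.28%), at a Benjamini-Hochberg adjusted p below 0.05 in limma and a fold change above 1.5 or below 0.67 on the log2(TPM + 1) scale. Of all 12819 genes tested, 20.0% were lower and 12.7% were higher by the same limits. The share of lowered members was thus near the background, and the share of raised members was under it. The median log2 fold change of the members was -0.15, with the middle of the distribution between -0.51 and 0.09, against a median of -0.07 for all genes tested. On the adjusted p alone 31 members were lower and 14 higher, against 34.2% and 26.2% of all genes tested. Without DMSO replicate 6 the count of lowered members was 9, and the count of raised members was 0 without DMSO or LPS replicate 7 and 2 without DMSO replicate 5 or LPS replicate 6.

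The lowered members were *Mrpl2*, *Mrpl4*, *Mrpl12*, *Mrpl14*, *Mrpl27*, *Mrpl28*, *Mrpl34*, *Mrpl38*, *Mrpl48*, *Mrpl54* and *Mrpl57* of the large subunit, and *Mrps12*, *Mrps24* and *Mrps26* of the small subunit. Their fold changes lay between 0.445 and 0.668. No called member had an LPS column within the range of the DMSO columns, but the calls were made on the same columns, so this is no separate result. Counted by subunit, 11 of 49 large subunit members and 3 of 29 small subunit members were lower, with median log2 fold changes of -0.22 and -0.12. The difference between the subunits was not tested. It came to -0.10 on the log2 scale and to -0.02 without DMSO replicate 5 and -0.20 without LPS replicate 7.

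*Mrpl34*, a bacterial-type protein of the large subunit whose gene lies at chr8:71464959-71465747, had the largest decrease. It measured 141, 122 and 132 TPM with DMSO, 58.4, 48.3 and 68.6 with LPS, and 58.4, 37.2 and 79.5 with LPS + Ska. All 6 treated columns were under the 3 DMSO columns, and the LPS columns lay within the range of the LPS + Ska columns. The log2 fold change of LPS compared with DMSO was -1.17 ± 0.23 (SE, adjusted p = 0.0019, limma). After removal of each column's trend with transcript GC content (the GC trend), it was -0.55 and no longer called.

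*Mrps26*, a mitochondria-specific protein of the small subunit (chr2:130563742-130568695), had the next largest. It measured 65.5, 61.3 and 58.6 TPM with DMSO, 27.6, 26.2 and 29.1 with LPS, and 25.3, 15.1 and 35.5 with LPS + Ska. Every treated column was again under every DMSO column. Its log2 fold change with LPS was -1.13 ± 0.23 (adjusted p = 0.0024), and the call held in all 20 alternative settings.

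*Mrpl28* (chr17:26123500-26126613), another bacterial-type protein of the large subunit, measured 99.1, 107 and 97.5 TPM with DMSO, 46.4, 48.0 and 44.9 with LPS, and 66.8, 48.2 and 85.4 with LPS + Ska. It was low in all LPS columns, and all LPS + Ska columns were between the other groups. The change with LPS was -1.11 ± 0.16 (adjusted p = 0.00033), and -0.49 and no longer called with the GC trend removed. The step back of 0.48 ± 0.16 with LPS + Ska missed the threshold (adjusted p = 0.056).

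*Mrpl27*, whose product lies near the site of peptide bond formation, followed. It measured 57.9, 66.2 and 53.6 TPM with DMSO, 29.6, 27.1 and 32.1 with LPS, and 40.0, 33.1 and 46.9 with LPS + Ska, with no overlap between any 2 groups. The change with LPS was -0.98 ± 0.13 (adjusted p = 0.00015) and held in all 20 alternatives. The rise with LPS + Ska over LPS, 0.41 ± 0.13, had an adjusted p of 0.039 and a fold under the limit.

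*Mrpl2*, a conserved protein of the ribosome's core, went from 97.4, 88.6 and 98.6 TPM with DMSO to 49.0, 44.8 and 53.2 with LPS, a log2 fold change of -0.94 ± 0.16 (adjusted p = 0.00068). *Mrpl54*, which is specific to mitochondria, went from 65.8, 77.3 and 70.4 TPM to 35.0, 33.9 and 36.0, 0.499-fold (adjusted p = 0.024). The call of *Mrpl54* was lost in 7 of 20 alternatives, among them those without DMSO replicate 6 or 7 or without any 1 LPS column, whereas that of *Mrpl2* was lost only with the GC trend removed. Both were low in all LPS columns.

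*Mrpl52*, a mitochondria-specific protein of the large subunit (chr14:54426909-54429756), was the only member called higher with LPS. It measured 55.8, 46.8 and 37.2 TPM with DMSO and 74.4, 62.0 and 86.8 with LPS. Every LPS column was above every DMSO column. The change was 0.67 ± 0.19 (adjusted p = 0.011), and without DMSO replicate 7 or without LPS replicate 7 it was no longer called.

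**Figure D2:**
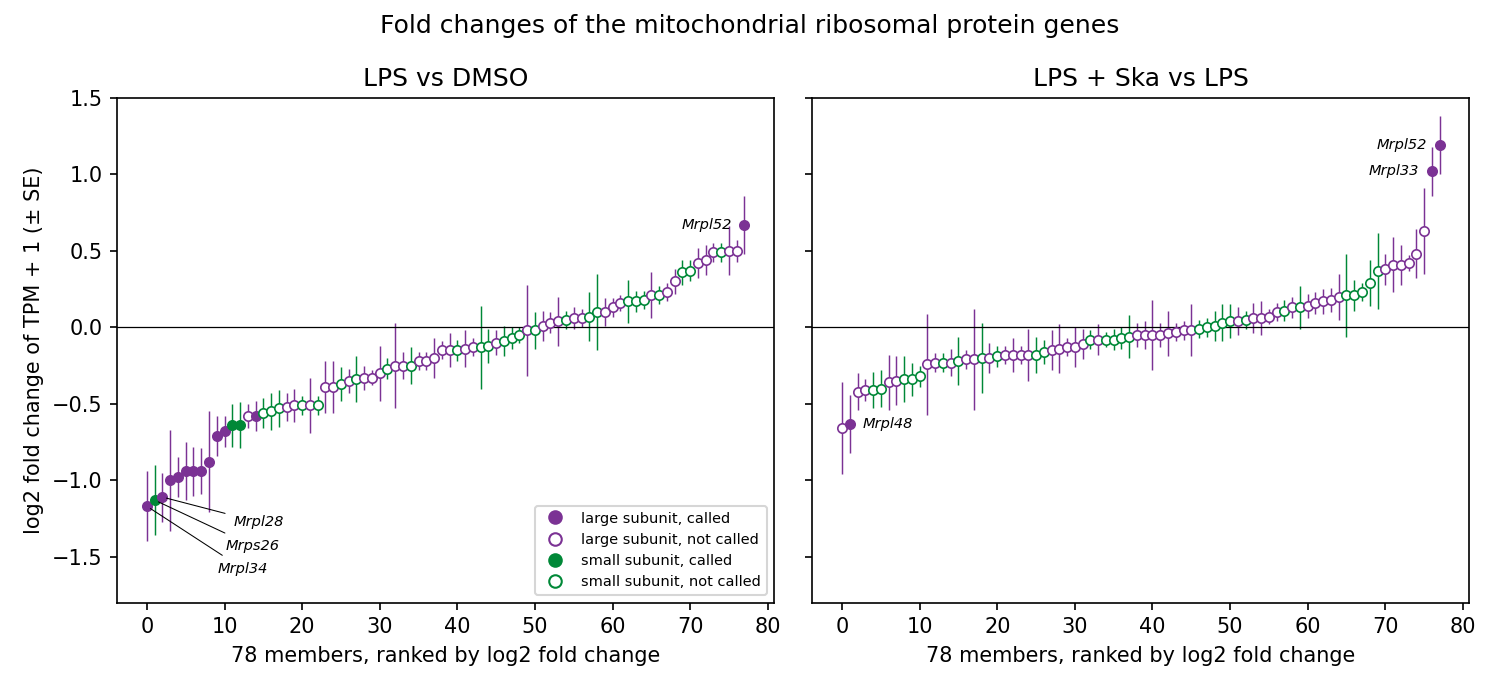
Log2 fold change (± SE, on TPM + 1) of the 78 members, ranked within LPS vs DMSO (left) and LPS + Ska vs LPS (right), by subunit; filled points passed the adjusted p and fold limits. On the left 14 members are called lower and 1 higher, and on the right *Mrpl52* and *Mrpl33* stand above the others.

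The second comparison asked what skatole added to LPS. *Mrpl52* and *Mrpl33* rose and *Mrpl48* fell, and the other 75 members were not called. Of all genes tested, 3.35% were higher and 6.14% were lower, so 2 and 1 of 78 members are not above the background. On the adjusted p alone, 6 members were higher and 11 lower, against 8.89% and 19.7% of all genes. The members' median log2 fold change was -0.05 and that of all genes tested -0.10. With median-ratio scaling, which moves the median of all genes to -0.005, the members' median was 0.04, and without LPS + Ska replicate 6 it was 0.023, so no overall direction was held. The large and small subunit members had medians of -0.05 and -0.07.

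*Mrpl52* measured 172, 137 and 208 TPM with LPS + Ska, against 74.4, 62.0 and 86.8 with LPS and 55.8, 46.8 and 37.2 with DMSO. The 3 groups did not overlap, and both steps were upward. Compared with LPS its level was 2.28-fold higher, a log2 fold change of 1.19 ± 0.19 (adjusted p = 0.0020), and 1.86 on the log2 scale compared with DMSO (adjusted p = 2.4e-05). The call against LPS held in all 20 alternatives, with log2 values between 1.05 and 1.35.

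*Mrpl33*, a small bacterial-type protein of the large subunit (gene at chr5:31596935-31664384), measured 66.1, 53.7 and 50.2 TPM with DMSO, 81.3, 63.0 and 99.7 with LPS, and 164, 150 and 179 with LPS + Ska. The LPS + Ska columns were above all others, and 1 LPS column lay within the DMSO range. Its level was 2.03-fold higher than with LPS, a log2 fold change of 1.02 ± 0.16 (adjusted p = 0.0019), and this call too held in all 20 alternatives.

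*Mrpl48*, a protein of the central protuberance of the large subunit (chr7:100545751-100608301), was the lowest expressed member. It measured 23.6, 29.0 and 33.3 TPM with DMSO, 14.4, 15.2 and 13.5 with LPS, and 9.15, 6.39 and 11.9 with LPS + Ska. The groups did not overlap, and both steps were downward. The change with LPS, -0.94 ± 0.19 (adjusted p = 0.0022), and that of LPS + Ska compared with DMSO, -1.57 ± 0.19 (adjusted p = 8.6e-05), held in all 20 alternatives. The change of LPS + Ska compared with LPS, -0.63 ± 0.19 (adjusted p = 0.036), was lost in 12 of 20, among them the recovered values (adjusted p = 0.050) and those without DMSO replicate 6, without any 1 LPS column, or without LPS + Ska replicate 5 or 6. The pseudogene *Mrpl48-ps*, which can share reads with *Mrpl48*, measured 16.5, 20.5 and 17.8 TPM with DMSO, 8.10, 7.29 and 8.92 with LPS, and 6.11, 3.40 and 8.81 with LPS + Ska. The split of reads between the 2 genes is therefore uncertain.

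**Figure D3:**
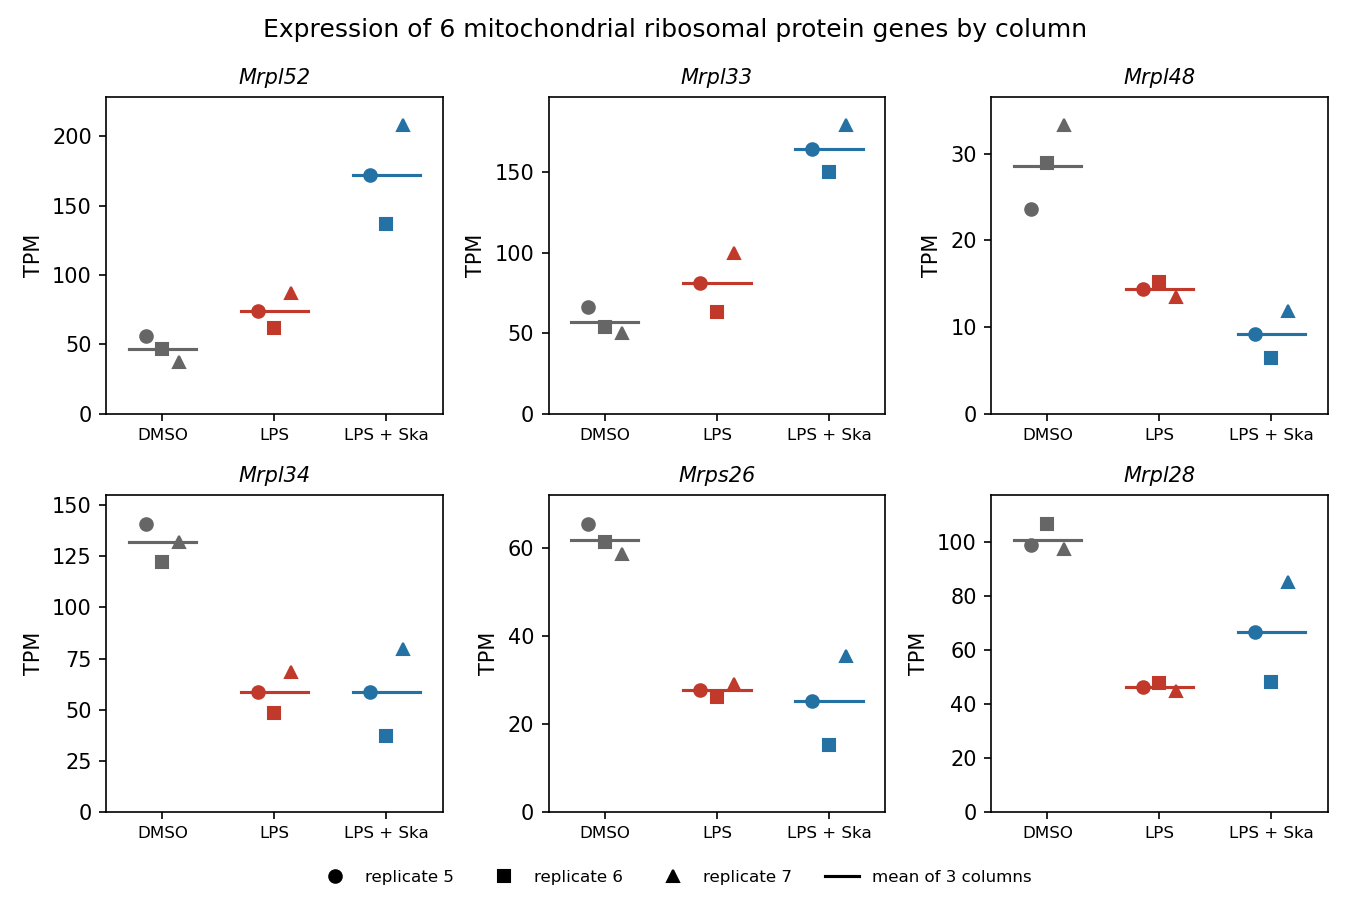
TPM of *Mrpl52*, *Mrpl33*, *Mrpl48*, *Mrpl34*, *Mrps26* and *Mrpl28* in each column; symbols are replicates and lines are means of 3 columns. *Mrpl52* and *Mrpl33* are highest in the LPS + Ska columns, and *Mrpl34*, *Mrps26* and *Mrpl28* are highest in the DMSO columns.

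Of the 14 members that LPS lowered, 5 had a log2 fold change above 0 and 9 below 0 with LPS + Ska compared with LPS, and *Mrpl48* was the only one called. Changes of opposite sign in the 2 comparisons were seen in single members past the adjusted p but within the fold limits. *Mrpl42* rose from 280, 244 and 268 TPM with DMSO to 373, 401 and 345 with LPS (0.50 ± 0.07, adjusted p = 0.00036) and measured 280, 296 and 264 TPM with LPS + Ska (-0.41 ± 0.07, adjusted p = 0.0040 compared with LPS). The LPS columns of *Mrpl42* were above the other 6, and the DMSO and LPS + Ska columns overlapped. The 2 comparisons share the LPS columns. *Mrpl18*, a bacterial-type protein named here after its values were seen, had the smallest adjusted p among the members in the comparison with LPS. It measured 113, 110 and 116 TPM with LPS and 151, 153 and 149 with LPS + Ska (0.42 ± 0.05, adjusted p = 0.00062), a fold under the limit.

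The LPS + Ska columns of the members were wide apart. Replicate 6 was below replicate 7 in 59 of 78 members (75.6%), with a median log2 difference of -0.23, against 39.3% of all genes tested, with a median of 0.10. In the DMSO and LPS groups the corresponding counts were 42 and 41 of 78. Among the large subunit members the median log2 difference was -0.26, and among the small subunit members -0.10. In 18 members replicate 6 was under every LPS column and replicate 7 above every LPS column. The same count was not made over all genes tested, so it cannot be read as particular to the members. Without LPS + Ska replicate 6, 5 members were higher and 0 lower than with LPS by limma (12 and 4 on the adjusted p alone), and without replicate 7, 2 were higher and 2 lower. Of all genes tested, 3.92% were higher and 7.77% lower without replicate 6, and 3.14% and 5.65% without replicate 7. On the adjusted p alone, without replicate 6, 9.24% of all genes were higher and 23.0% lower, against 15.4% and 5.13% of the members. The part of this spread in the calls was not otherwise tested.

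**Figure D4:**
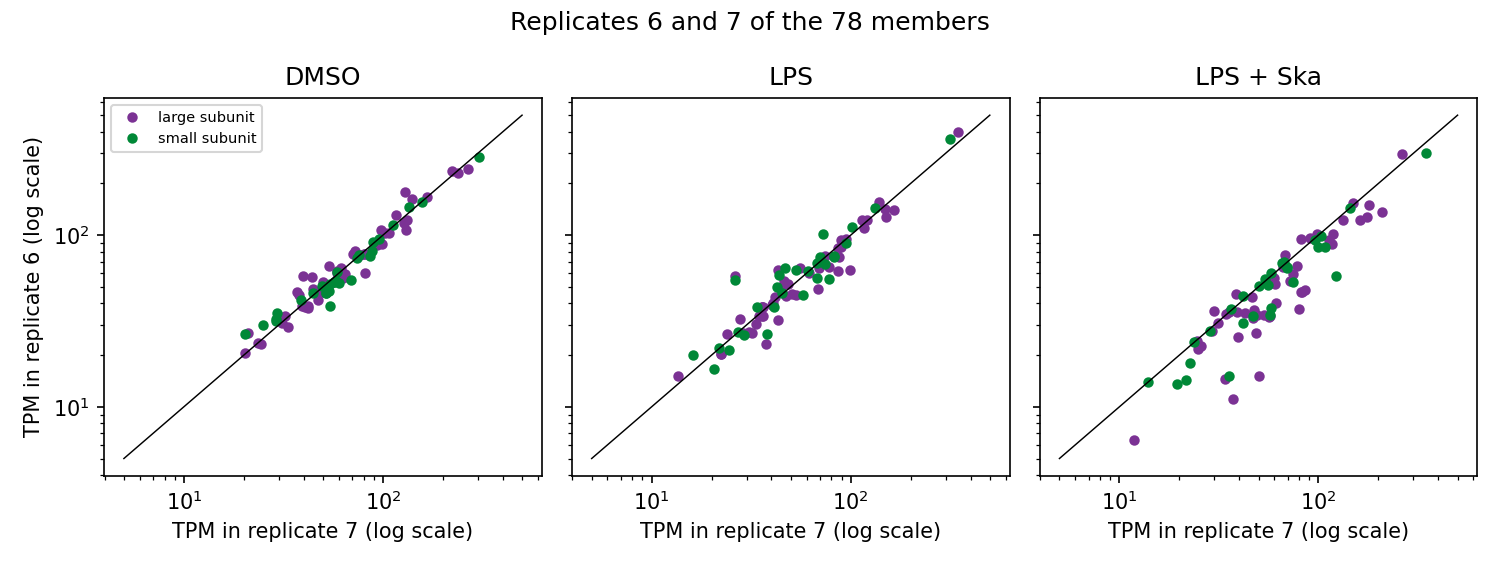
TPM of the 78 members in replicate 6 against replicate 7 for each group, on log axes, by subunit; the line marks equal values. With LPS + Ska, 59 of 78 points lie under the line.

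Compared with DMSO, LPS + Ska lowered 20 of 78 members and raised 3 (25.6% and 3.85%), against 25.3% and 11.4% of all genes tested. The lowered share was near the background and the raised share under it. The split turned on the scaling: with median-ratio scaling 9 members were lower and 7 higher, and over all genes tested 3243 lower and 1457 higher became 2295 and 2153. On the adjusted p alone 38 members were lower and 14 higher, against 40.6% and 22.7% of all genes. The members' median log2 fold change was -0.25 (all genes tested -0.18) and became -0.07 with that scaling (all genes tested -0.013). By subunit, 12 of 49 large and 8 of 29 small subunit members were lower, and all 3 raised members, *Mrpl1*, *Mrpl33* and *Mrpl52*, are of the large subunit.

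*Mrpl1*, the protein of the mobile stalk beside the exit site, measured 23.2, 26.9 and 21.0 TPM with DMSO, 32.0, 30.3 and 33.6 with LPS, and 41.8, 45.3 and 38.4 with LPS + Ska. The groups did not overlap. With LPS + Ska its log2 fold change over DMSO was 0.80 ± 0.10 (adjusted p = 9.6e-05). With the GC trend removed, the log2 value was 0.46 and no longer called.

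*Mrpl14*, at the interface of the subunits, measured 43.6, 48.2 and 49.8 TPM with DMSO, 25.2, 26.6 and 23.9 with LPS, and 24.1, 11.1 and 37.2 with LPS + Ska. All treated columns were under the DMSO columns. Its decreases were -0.88 ± 0.33 with LPS (adjusted p = 0.041, lost in 12 of 20 alternatives, among them those without any 1 DMSO or LPS column or without LPS + Ska replicate 5) and -1.09 ± 0.33 with LPS + Ska (adjusted p = 0.015). The latter was lost with no filter and with the GC trend removed (-0.34, adjusted p = 0.38, limma).

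Several members carry roles or places that their symbol does not show. *Mrpl12*, which is also known to bind the mitochondrial RNA polymerase, measured 230, 235 and 222 TPM with DMSO, 153, 140 and 166 with LPS, and 142, 122 and 162 with LPS + Ska. It was lower in all treated columns, by -0.58 ± 0.10 with LPS (adjusted p = 0.00080) and -0.69 ± 0.10 with LPS + Ska (adjusted p = 0.00025), both compared with DMSO. The call with LPS was lost in 6 of 20 alternatives, those without DMSO replicate 6 or LPS replicate 6, the rescaling without mitochondrial-genome and cytosolic ribosomal genes, median-ratio scaling and either trend removed, and that with LPS + Ska in the last 3 of these. With the GC trend removed the log2 values were -0.10 and -0.12. *Mrps36*, now known as a component of the alpha-ketoglutarate dehydrogenase complex, measured 39.8, 41.8 and 39.0 TPM with DMSO, 45.6, 46.2 and 45.0 with LPS, and 53.6, 51.4 and 55.8 with LPS + Ska. Its groups were in the same order as those of *Mrpl1*, but no fold passed the limit (0.41 ± 0.06 for LPS + Ska compared with DMSO).

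The paralogues of *Mrps18* differed from each other. *Mrps18a*, which sits in the large subunit despite its symbol, measured 110, 115 and 113 TPM with DMSO, 79.0, 75.2 and 82.8 with LPS, and 67.2, 64.9 and 69.4 with LPS + Ska, and was lower in LPS + Ska than in DMSO (-0.74 ± 0.06, adjusted p = 4.3e-06). This call was lost with median-ratio scaling and with the GC trend removed, where the log2 values were -0.56 and -0.15. *Mrps18b* measured 105, 95.2 and 95.6 TPM with DMSO and 139, 144 and 133 with LPS, a log2 fold change of 0.49 ± 0.06 (adjusted p = 6.9e-05) under the fold limit, and 144 TPM in all 3 LPS + Ska columns. *Mrps18c* had group means of 52.3, 55.4 and 47.9 TPM, and its columns overlapped. *Mrps30*, also part of the large subunit by structure, had group means of 47.8, 61.4 and 54.8 TPM (0.36 ± 0.08 with LPS, adjusted p = 0.0037, under the fold limit).

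The members of highest and lowest level were not alike in their changes. *Mrps6* had group means of 302, 340 and 325 TPM with DMSO, LPS and LPS + Ska and was not called in any comparison. *Mrpl4* fell from 232 ± 4.61 TPM (SD, n = 3 columns) with DMSO to 145 ± 3.01 with LPS (-0.68 ± 0.10, adjusted p = 0.00028), a call lost with either the length or the GC trend removed. Among the lowest, *Mrps35* had means of 23.6, 18.1 and 14.0 TPM and was called lower only for LPS + Ska compared with DMSO (-0.71 ± 0.11, adjusted p = 0.00035), a call lost with median-ratio scaling and with the length trend removed. *Mrpl47* had means of 20.7, 21.2 and 23.2 TPM and was called in none.

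Base composition moved with the changes against DMSO. The 14 members lowered by LPS had a median transcript GC content of 57.6%, and the 63 uncalled members 49.7%; over all genes tested the lowered and uncalled genes had 55.6% and 49.2%. Spearman's rho between the log2 fold change with LPS and GC content was -0.52 over the 78 members and -0.57 over 12805 genes with a known length, a description across genes that share libraries. For LPS + Ska compared with DMSO, rho with GC content was -0.40 over the members. With transcript length, rho for LPS was 0.02 over the members and 0.05 over the 12805 genes. With the GC trend of each column removed, 6 members were lower and 2 higher with LPS, and 4 of the 6 were among the 14. Of all genes tested, 9.71% were then lower and 10.4% higher. *Mrps26* (GC content 49.2%), *Mrpl27* (51.5%), *Mrpl48* (45.5%) and *Mrpl57* (42.3%) kept their calls, and *Mrpl34*, *Mrpl28*, *Mrpl2* and *Mrpl54* did not. With the length trend removed, 9 members were lower and 3 higher, against 16.2% and 15.1% of all genes tested. The part of GC content in the decreases was not tested further.

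For LPS + Ska compared with LPS, rho with GC content was 0.04 and rho with length was -0.04 over the members, against -0.03 and -0.21 over all genes with a known length. *Mrpl52* and *Mrpl33* have median transcript lengths of 440.5 and 478 nt, against a median of 1224 nt over the members and 2270 nt over all genes tested. All 429 genes that were higher in this comparison had a median of 970 nt. With the length trend removed, the log2 fold changes of *Mrpl52* and *Mrpl33* were 1.20 and 1.03, and both stayed called. Among members of like length, *Mrps21* (446.5 nt) had a log2 fold change of 0.37 ± 0.25 and *Mrpl20* (494 nt) one of -0.23 ± 0.09, and neither was called.

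**Figure D5:**
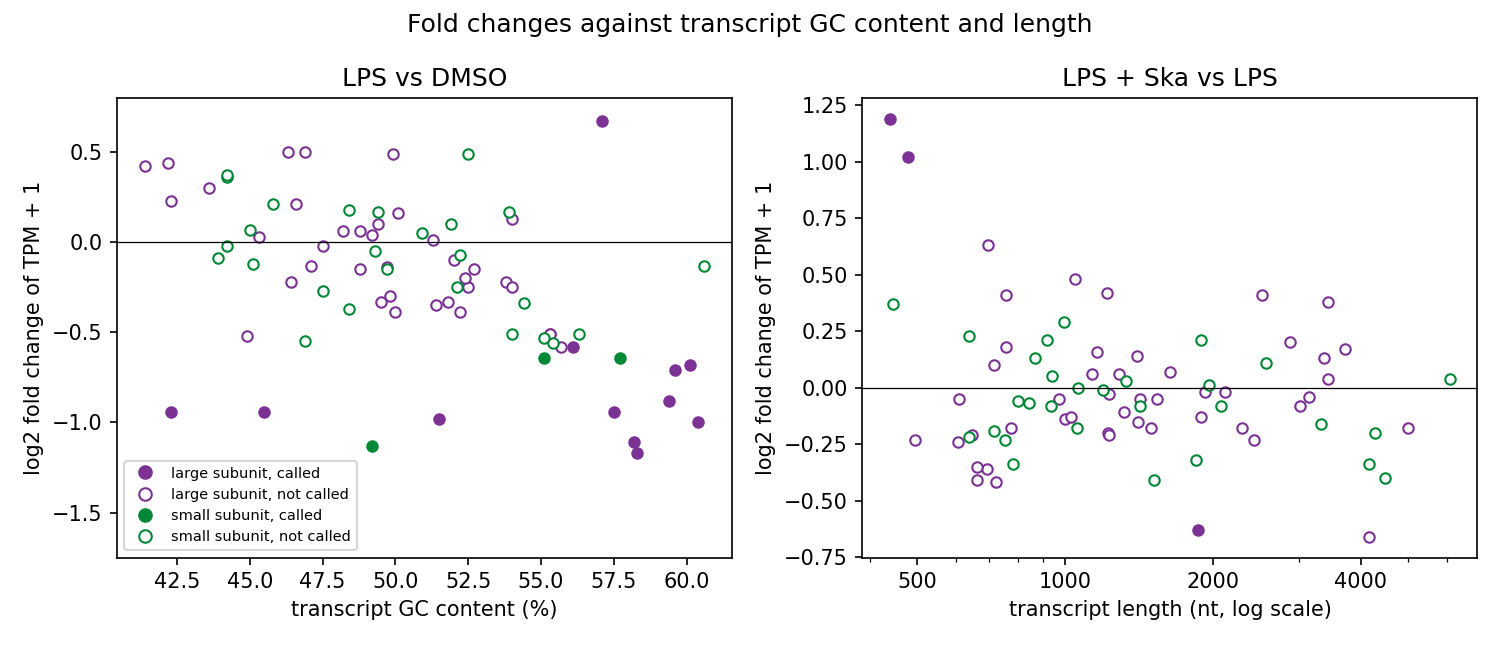
Log2 fold change of the 78 members against transcript GC content for LPS vs DMSO (left) and against transcript length for LPS + Ska vs LPS (right, log axis); filled points passed the limits. The lowered members lie mostly at high GC content, and the risers are among the shortest transcripts.

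The members lie on many chromosomes and often beside a divergent neighbour. By the GENCODE M21 annotation of GRCm38, 33 of 78 (42.3%) have a protein-coding gene that starts within 1000 bases on the opposite strand and points away, against 18.4% of 10473 tested protein-coding genes. *Mrpl46* and *Mrps11*, one of each subunit, are such a pair on chromosome 7. *Mrpl46* had a log2 fold change of -0.15 ± 0.11 with LPS and was not called, and *Mrps11* one of -0.53 ± 0.12 (adjusted p = 0.0043), under the fold limit. Exons of 33 members (42.3%) overlap those of another gene, a share near the 38.6% of tested protein-coding genes. The overlap covers 88.0% of the exon bases in *Mrpl53*, 69.8% in *Mrps25* and 63.4% in *Mrps34*. The counting's use of strand is not given in the sources used here, so the values of these 3 are uncertain. *Mrpl53* measured 42.2, 58.2 and 26.1 TPM with LPS and 64.1, 46.4 and 81.9 with LPS + Ska, and its columns overlapped between the groups.

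Other genes of the same particle and its assembly were read from lists made by function. Of 5 subunits with other symbols, *Aurkaip1* went from 119, 100 and 108 TPM with DMSO to 61.7, 54.3 and 69.1 with LPS (-0.82, adjusted p = 0.00063), and *Gadd45gip1* from 37.9, 40.3 and 44.1 to 26.0, 27.4 and 24.6 (-0.63, adjusted p = 0.014). With the GC trend removed the log2 values were -0.25 and -0.23 and neither was called, and *Gadd45gip1* was also not called with median-ratio scaling, with the length trend removed or without DMSO replicate 7. *Dap3*, *Ptcd3* and *Chchd1* were not called in any comparison, and none of the 5 was called for LPS + Ska compared with LPS. Under the fold limit, *Ptcd3* was higher than with DMSO, by 0.49 with LPS (adjusted p = 0.00081, limma) and 0.38 with LPS + Ska (adjusted p = 0.0034). Both changes of *Ptcd3* were called with the length trend removed. With the GC trend removed, 0 of the 5 passed the adjusted p with LPS in either direction. Of 27 assembly factors, 6 were lower and 3 higher with LPS (22.2% and 11.1%, against 20.0% and 12.7% of all genes tested). *Mettl15*, a methyltransferase of the small subunit RNA, was the only one called for LPS + Ska compared with LPS. It measured 7.86, 7.03 and 8.68 TPM with LPS and 4.45, 3.73 and 5.17 with LPS + Ska (-0.70, adjusted p = 0.020, and 0.066 with the recovered values), and the call was also lost with the GC trend removed and without LPS replicate 5 or 7 or LPS + Ska replicate 5. Compared with DMSO, LPS + Ska lowered 6 of the 27 and raised 2 (22.2% and 7.41%, against 25.3% and 11.4% of all genes tested). With the GC trend removed, 0 of the 27 were lower and 2 higher with LPS, and 0 and 1 with LPS + Ska, both compared with DMSO. Of all genes tested, 9.71% were then lower and 10.4% higher with LPS, and 10.4% and 11.9% with LPS + Ska.

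Of 14 mitochondrial translation factors tested, 1 was called in the comparison of LPS + Ska with LPS and in that of LPS with DMSO. *Slirp*, which stabilizes mitochondrial messenger RNA together with *Lrpprc*, measured 3.90, 4.06 and 5.42 TPM with DMSO, 8.42, 7.99 and 8.85 with LPS, and 15.6, 11.9 and 19.3 with LPS + Ska. Its groups did not overlap, and it rose in both steps, by 0.80 (adjusted p = 0.0028) and 0.79 (adjusted p = 0.0086), the first of which was 0.53 and no longer called with the GC trend removed. *Lrpprc* itself was not called. Under the fold limit, it was higher than with DMSO, by 0.43 with LPS (adjusted p = 0.001, limma) and 0.35 with LPS + Ska (adjusted p = 0.0034). Compared with DMSO, LPS + Ska raised *Slirp* (1.59, adjusted p = 3.7e-05, limma). *Tufm* (-0.85, adjusted p = 0.00021) and *Taco1* (-0.70, adjusted p = 0.00045) were lower in that comparison. These 2 lower and 1 higher of the 14 stood beside 25.3% and 11.4% of all genes tested. With the GC trend removed, 0 of the 14 were lower and 1 higher, against 10.4% and 11.9% of all genes tested.

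Cytosolic ribosomal protein genes and nuclear complex I genes gave a comparison. With LPS, 18 of 85 cytosolic genes were higher and 7 lower, with a median log2 fold change of 0.11. These were 21.2% and 8.24%, against 12.7% and 20.0% of all genes tested. Of 36 complex I genes, 1 was higher and 5 lower (2.78% and 13.9%), with a median of -0.26, beside -0.15 for the mitochondrial ribosomal members. With the GC trend removed, the medians of the cytosolic, complex I and member genes were 0.22, 0.0 and -0.06. Calls in that setting were 24 higher and 1 lower for the cytosolic genes (28.2% and 1.18%), and 1 and 3 for complex I (2.78% and 8.33%). Of all genes tested, 10.4% were then higher and 9.71% lower. With LPS + Ska compared with LPS, 9 of 85 and 3 of 36 were higher and 1 and 0 lower by limma, with medians of -0.04 and 0.09. Of all genes tested, 3.35% were higher and 6.14% lower in this comparison. No test of the differences between these sets was run.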

How the data were processed

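RNA of 9 samples of RAW264.7 macrophages, 3 each for DMSO, LPS and LPS + Ska, was sequenced by the authors from NEBNext Ultra libraries, and the authors deposited TPM values for 55401 genes. The submitters' processing notes name fastp 0.20.1, HISAT2 2.2.1, StringTie 2.0 and mm10, with no roles given. Symbols, positions, transcript lengths and GC content came from GENCODE M21 and RefSeq tables of GRCm38. TPM keeps no depth, so no counting error could be given.

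The log2(TPM + 1) values, which understate changes of low genes, were fitted in limma 3.58.1 (R 4.3.3; eBayes, trend on intensity) with all 9 columns together, for 12819 genes averaging 1 TPM or more. A call needed a Benjamini-Hochberg adjusted p below 0.05, adjusted over all 12819 genes, together with a fold above 1.5 or under 0.67. The alternatives changed the pseudocount (0.1), the filter (none, or a mean of 5 TPM), the scaling (median-ratio, or TPM recomputed after leaving out mitochondrial-genome and cytosolic ribosomal genes), the samples fitted (only the compared groups, or 1 column left out), the intensity trend (none) and the block (by replicate). Others used the recovered values (replicate 5 plus and minus 0.5 times its difference from replicate 6) or removed each column's loess trend (span 0.3) on length or GC content. The fit was tested on simulated data.

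Named members were those called for LPS + Ska compared with LPS, up to 6 of largest change in each direction for the other comparisons, the 3 highest and 3 lowest in level, and *Mrps18a*, *Mrps18b*, *Mrps18c*, *Mrps30*, *Mrps36* and *Mrpl12*. The companion lists were subunits with other symbols, translation factors (*Mtrfr* was not matched), assembly factors, transcription and genome maintenance genes, regulators, cytosolic ribosomal protein genes and complex I genes. Members and lists were chosen with earlier results of these data known. Plots were made with matplotlib 3.10.9 (Python 3.11.15).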

Additional observations from a re-analysis of the deposited data

How the results depend on the processing

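With only 2 independent values in each treated group and no depth, small changes of single members remain uncertain. *Mrpl52* and *Mrpl33* were called higher for LPS + Ska compared with LPS in all 20 alternatives. For LPS compared with DMSO, 14 members were lower and 1 higher. The counts were 9 lower and 3 higher with the length trend removed (median -0.048), 6 and 2 with the GC trend removed, and 31 and 14 on the adjusted p alone. Of all genes tested, 16.2% were lower and 15.1% higher with the length trend removed, and 9.71% and 10.4% with the GC trend removed. Leaving out 1 column gave 9 to 15 lower (9 without DMSO replicate 6) and 0 to 2 higher, and a difference of the large and small subunit medians between -0.199 and -0.019. For LPS + Ska compared with LPS, 2 were higher and 1 lower, and 0 were lower with no filter, median-ratio scaling, the compared groups alone, recovered values or either trend removed. On the adjusted p alone 6 were higher and 11 lower. Leaving out 1 column gave 2 to 5 higher and 0 to 2 lower, with 5 and 0 without LPS + Ska replicate 6. The members' median was -0.05, and it was above 0 with median-ratio scaling, with the GC trend removed and without LPS + Ska replicate 6 (0.045, 0.041 and 0.023). For LPS + Ska compared with DMSO, 20 were lower and 3 higher. The counts were 9 and 7 with median-ratio scaling (median -0.071), 12 and 6 with the length trend removed (-0.083), 7 and 8 with the GC trend removed (-0.040), 38 and 14 on the adjusted p alone, and 5 higher after rescaling without mitochondrial-genome and cytosolic ribosomal genes. The shares of all genes tested moved too. They were 17.9% lower and 16.8% higher with median-ratio scaling, 17.8% and 17.0% without the length trend, and 10.4% and 11.9% without the GC trend. With the GC trend removed, the log2 fold changes of *Mrpl28* and *Mrpl4* for LPS + Ska compared with DMSO were 0.07 and 0.15, and that of *Mrpl4* for LPS compared with DMSO was 0.00. The causes were not tested.

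A replicate block left 14 members lower and 1 higher with LPS, 2 higher and 1 lower with LPS + Ska compared with LPS, and 20 lower and 3 higher compared with DMSO. Deviations of same-numbered columns correlated at 0.38, 0.15 and 0.13 for LPS with LPS + Ska and at -0.032 to 0.080 for the other pairs of groups. The tied columns are not separate observations, so these numbers were read as names and not as pairs.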

Other observations

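Genes that act upstream of the mitochondrial ribosome were also read out. Of 8 genes of mitochondrial transcription and genome maintenance, *Tfb2m*, a transcription factor of the organelle, was the only one called with LPS, from a mean of 29.7 TPM with DMSO to 44.8 with LPS (0.59, adjusted p = 0.0026, limma). None of the 8 was called for LPS + Ska compared with LPS, where 0 were higher and 1 lower on the adjusted p alone. Compared with DMSO, LPS + Ska lowered the RNA polymerase *Polrmt* (29.8 to 18.2 TPM, -0.68, adjusted p = 2.5e-05) and the DNA polymerase *Polg* (39.1 to 24.3 TPM, -0.67, adjusted p = 0.00034) and raised *Tefm*, an elongation factor (14.0 to 22.3 TPM, 0.66, adjusted p = 0.0021). These 2 lower and 1 higher of the 8 stood beside 25.3% and 11.4% of all genes tested. With median-ratio scaling, 0 of the 8 were lower and 1 higher in this comparison, against 17.9% and 16.8% of all genes tested. With the GC trend removed, none of the 8 was called in any comparison. Of all genes tested, 10.4% were then lower and 11.9% higher with LPS + Ska compared with DMSO.

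Of 8 tested regulators of nuclear genes for mitochondrial proteins, *Myc* rose with LPS from 7.72, 7.16 and 6.81 TPM to 29.0, 33.2 and 24.7 (1.86, adjusted p = 3.5e-06), and *Esrra* fell from 36.5, 43.5 and 36.6 TPM to 22.7, 23.1 and 22.3 (-0.75, adjusted p = 7.6e-05). The LPS columns of neither overlapped those of DMSO. *Pprc1* was lower in LPS + Ska than in DMSO, at 39.3, 43.2 and 35.4 against 61.0, 71.5 and 72.0 TPM (-0.78, adjusted p = 6e-05). The calls of *Esrra* and *Pprc1* were lost with the GC trend removed. In that setting 0 of the 8 were lower in either comparison with DMSO, also on the adjusted p alone. Of all genes tested, 9.71% were then lower with LPS and 10.4% with LPS + Ska, or 22.8% and 25.2% on the adjusted p alone. *Nrf1* and *Gabpa*, which encode the NRF1 and GABP factors whose letters were searched above, were not called in any comparison. Within the fold limits, *Gabpa* was higher than with DMSO, by 0.51 with LPS (adjusted p = 0.00091, limma) and 0.48 with LPS + Ska (adjusted p = 0.0012). *Nrf1* was lower with LPS + Ska than with LPS (-0.35, adjusted p = 0.014). With median-ratio scaling, 3 of the 8 were higher and 1 lower with LPS, against 15.4% and 16.8% of all genes tested. *Ppargc1a* was listed at 0 in every column.

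Of the annotated pseudogenes of members, *Mrpl48-ps* was called lower with LPS (-1.08, adjusted p = 0.0039) and in LPS + Ska compared with DMSO (-1.51, adjusted p = 0.00049). *Mrpl23-ps1*, *Mrps36-ps1* and *Mrps36-ps2* had means of 2.12, 1.32 and 1.31 TPM and were not called, and *Mrps36-ps3* was listed at 0.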
